A study of Mus musculus with 577 samples.

Results

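Single oocytes and single granulosa cells that had been freshly dissociated from a mouse ovary, without fixation, were compared by 3′-end RNA sequencing. The cells were chosen by their labels, as the cells collected fresh and labelled by cell type, and they make 49 of the 577 samples of the series: 14 oocytes labelled as grown and 35 granulosa cells. The ovary came from a single mouse aged 8 weeks in proestrus of its natural cycle, the stage before ovulation. According to the study's methods, cumulus–oocyte complexes of fully grown follicles were collected in a medium with dibutyryl-cAMP, a cAMP analog that keeps oocytes from resuming meiosis, the cells were separated by pipetting, and cDNA was amplified by Smart-seq2. Both cell types were handled in that medium. Of the granulosa cells, 14 had been attached to an oocyte (labelled neighboring) and 21 had not (non-neighboring). Values of 8 oocytes and 70 granulosa cells that were cut by laser capture microdissection (LCM) from alcohol-fixed frozen sections of the other ovary of the same mouse are set beside some results. Those oocytes are labelled as from secondary to antral follicles, the dissociated ones as grown.

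Since all 49 cells came from the same ovary, each cell type is a single sample. No test between the groups was possible, and the differences below are given as sizes, with the spread over cells.

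In the ovary, an oocyte grows inside a follicle of granulosa cells that are joined to it through gap junctions. The oocyte makes the zona pellucida, its egg coat, and secretes growth factors of the TGF-β family that act on the granulosa cells. Granulosa cells make inhibins and activins, dimers of a shared set of subunits, convert steroids, supply the oocyte with small metabolites that it makes poorly, and hold it in meiotic arrest through cGMP until the LH surge. Fully grown oocytes are close to silent in transcription and hold a large store of maternal mRNAs.

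The promoters of the zona gene Zp3, the activin subunit gene Inhba and the immediate early gene Fos are shown because these 3 genes mark the contrast described below. The RefSeq sequences are from GRCm38, run from 250 bases before the start site to 50 bases after it, and lie on the plus strand at chr5:135979855-135980154 for Zp3, chr13:16011601-16011900 for Inhba and chr12:85473640-85473939 for Fos. Capitals mark matches on either strand to the E-box CANNTG, to TAATTG or to TGACG, the core of the cAMP response element.
Zp3: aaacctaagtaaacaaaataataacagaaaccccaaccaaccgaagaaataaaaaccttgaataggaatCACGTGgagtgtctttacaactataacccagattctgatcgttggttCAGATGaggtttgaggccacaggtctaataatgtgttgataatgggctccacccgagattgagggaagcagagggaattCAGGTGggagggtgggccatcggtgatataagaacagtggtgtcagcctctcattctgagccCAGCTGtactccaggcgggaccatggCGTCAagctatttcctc
Inhba: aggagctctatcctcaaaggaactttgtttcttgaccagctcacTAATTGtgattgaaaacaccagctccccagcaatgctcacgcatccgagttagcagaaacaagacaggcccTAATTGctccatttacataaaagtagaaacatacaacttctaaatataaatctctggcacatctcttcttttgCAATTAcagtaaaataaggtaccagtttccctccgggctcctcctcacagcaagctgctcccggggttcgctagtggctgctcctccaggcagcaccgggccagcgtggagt
Fos: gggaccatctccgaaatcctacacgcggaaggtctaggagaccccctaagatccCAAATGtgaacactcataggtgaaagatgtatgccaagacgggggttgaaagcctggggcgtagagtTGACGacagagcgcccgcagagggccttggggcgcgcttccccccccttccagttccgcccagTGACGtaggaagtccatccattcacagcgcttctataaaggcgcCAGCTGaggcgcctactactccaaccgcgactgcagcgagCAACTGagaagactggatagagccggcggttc
The Zp3 promoter held 4 E-boxes and TGACG at 1 place, the Inhba promoter held TAATTG 3 times, and the Fos promoter held TGACG at 2 places and an E-box at 3. Over the promoters of 27025 genes of the same length, 72.1% held an E-box, 8.15% TAATTG and 21.02% TGACG, so that an E-box is common in any such window. All 11 promoters at hand of 13 oocyte cluster genes (Oog, Tcl1, Fbxw and Bcl2l10) held an E-box, and 11 of the 20 promoters at hand of 26 immediate early genes held TGACG. Of the 6 promoters at hand of 7 inhibin and activin genes, 1 held TAATTG, that of Inhba, and 2 an E-box. A match of letters is no evidence of binding.

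The oocyte libraries held 204271 to 545479 reads on the genes of the table (median 252996), and the granulosa cell libraries 12748 to 353959 (median 111681), with 15 of the 35 under 100000. Expression is given as RPM, reads scaled to a library total of 1000000, or as log2 (RPM+1), and is thus a share of a library, not an amount of RNA per cell. Reads were counted at 3′ ends and not divided by gene length. The numbers of detectable genes, those with at least 1 read, were 10340, 10822.5 and 12155 in oocytes (lowest, median and highest cell) and 3143, 6268 and 8889 in granulosa cells. With each library thinned to 50000 reads, which left out 2 granulosa cells, the medians came to 7516.5 and 5783. The oocytes then lay within 7402 to 7796 genes, and the granulosa cells spread from 1457 to 7245. At that depth every oocyte showed more genes than every granulosa cell. At 20000 reads the highest granulosa cell (5303) was above the lowest oocyte (5279), and the gap between the medians narrowed as fewer reads were drawn. Per the study's methods, the number of detectable genes needed to keep a library was higher for oocytes than for granulosa cells. The gap and the lack of overlap are therefore not free of that filter, and its part in them was not tested.

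**Figure D1:**
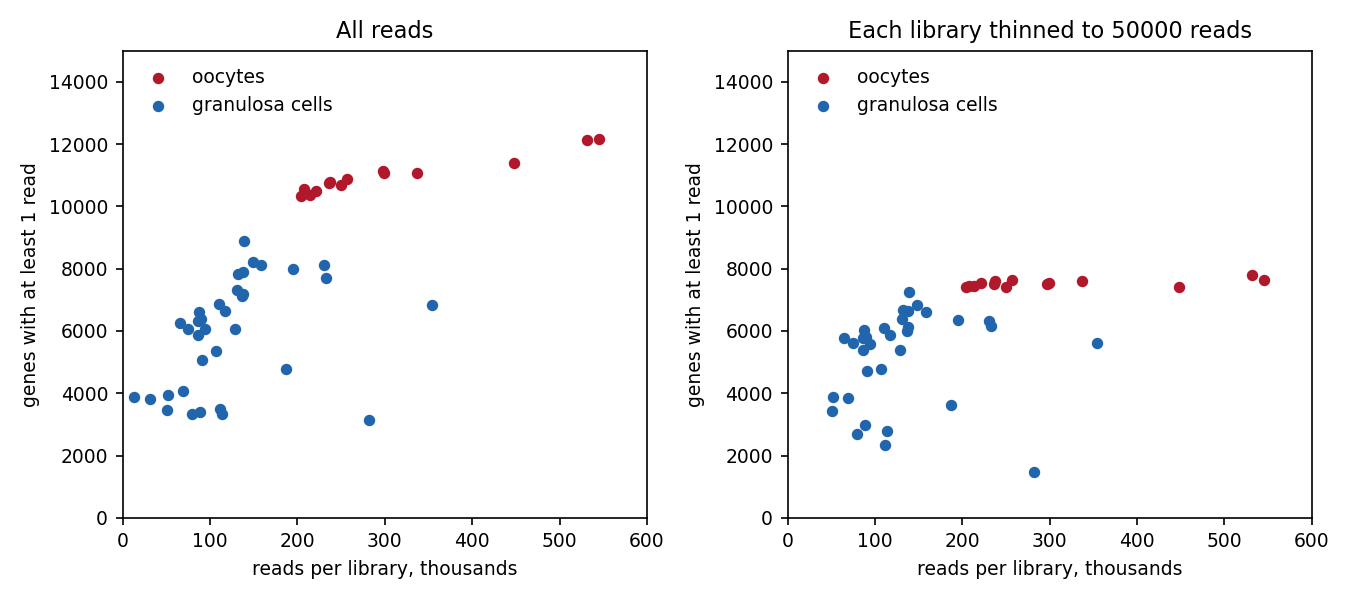
Detectable genes (vertical axis) against the reads of each library (horizontal axis, in units of 1000 reads) for 14 oocytes and 35 granulosa cells, with all reads on the left and after thinning to 50000 reads on the right, where 33 granulosa cells remain. After thinning, the oocytes form a flat band near 7516.5 genes and the granulosa cells scatter below it, down to 1457.

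The oocytes were close to one another and the granulosa cells were not. Across 16804 genes detectable in any of the 49 cells, the median correlation of log2 (RPM+1) was 0.90 over the 91 pairs of oocytes (range 0.88 to 0.94), 0.50 over the 595 pairs of granulosa cells (0.25 to 0.75) and 0.43 between the cell types. These are correlations across genes, which are not independent, and depth enters them: after thinning to 50000 reads the medians were 0.74, 0.47 and 0.33. In a PCA, the first component held 28.3% of the variance and separated all oocytes from all granulosa cells. Where the mean of a gene in a cell type was 8 or more on that scale, the median SD over cells was 0.28 for 762 genes in oocytes and 1.75 for 282 genes in granulosa cells. No pair of libraries was alike enough to be the same library deposited more than once (highest correlation 0.94).

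By their sum, the granulosa markers followed the labels in all 14 oocytes and in 34 of the 35 granulosa cells. The summed level of 10 granulosa markers (Inhba, Inha, Foxl2, Amh, Amhr2, Fshr, Fst, Nr5a2, Cyp19a1 and Serpine2) was 467 to 657 RPM in oocytes, most of it from Serpine2, and 2445 to 66303 RPM in 34 granulosa cells. In granulosa cells the highest means among them were those of Inha and Inhba, at 10166 and 6882 RPM. Not every marker parted the cell types, since Serpine2 was high in both and Cyp19a1 had similar means in both. A single library labelled as a granulosa cell, non-neighboring, from library pool 6, stood at 568 RPM, within the range of the oocytes, with 12.6 RPM of Inha, 4089 RPM of Hsd3b1 and 3343 detectable genes. Most of its sum was Fst, at 454 RPM against at most 12.8 RPM in oocytes, and Serpine2 was at 50.5 RPM against 352 RPM or more in oocytes, so that it resembled the oocytes in the sum and not in the genes that make it up. At the other end, 3 libraries labelled as granulosa cells reached at least 10% of the median oocyte level over 14 oocyte genes (described further below). Without the first library 5242 and 1074 genes, and without the 3 others 5253 and 1158, were at least 4-fold higher in oocytes and in granulosa cells, against 5333 and 1021 with all cells.

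Of the 16804 detectable genes, 5333 (31.7%) had a mean log2 (RPM+1) higher in oocytes by at least 2, a 4-fold difference on this scale, and 1021 (6.08%) were higher in granulosa cells by as much. The median difference over all genes was 0.75 towards the oocytes, and the list values below are to be read against it. TMM scaling moved it to 1.10. When reads were summed over the cells of a type first, 2834 genes were 4-fold higher in oocytes and 3309 in granulosa cells, so that the oocyte share of such genes went from 83.9% to 46.1%. Library pools, the sets of cDNAs made into a library together, held both cell types in 4 cases. Each of these pools, 1, 2, 4 and 6, had 1 oocyte against 10, 5, 3 and 2 granulosa cells. Differences taken within these pools, and averaged over them with equal weight, gave 6377 and 578 such genes. Values given below as within pools are of this kind and rest on 1 oocyte per pool. The 2 granulosa libraries of pool 6 were 1 high in oocyte genes and the one low in granulosa markers, and they weigh as much as the 10 of pool 1. For 420 genes (2.5%) every oocyte lay above every granulosa cell in RPM, and for 16 (0.0952%) every granulosa cell lay above every oocyte.

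The 15 genes with the largest differences towards oocytes, by 8.28 to 9.0 on the log2 scale, were Fbxw14, Tcl1, Oog3, Cpsf4l, Fbxw24, Omt2a, H1foo, Bcl2l10, E330034G19Rik, Zp3, Obox5, E330021D16Rik, Btg4, Umodl1 and Oas1d. For 11 of them no granulosa cell reached the lowest oocyte, where this held for 2.5% of all genes. The 15 were picked by their differences between these same cells, so that a larger share follows in part from the choice. Fbxw14 (chr9:109270790-109287676 in GRCm38), an F-box gene of an oocyte-expressed cluster, came to 3533, 5319 and 7454 RPM in oocytes (lowest, median and highest cell, here and below) and to 0, 12.99 and 2764 RPM in granulosa cells, of which 21 had a read. H1foo (chr6:115944938-115950236), the linker histone of oocytes, came to 4042, 5359 and 9764 RPM and 0, 21.2 and 4393 RPM. Each of the 15 genes ran from no read upward in granulosa cells. In reads summed over cells, the 15 genes were 42.8 to 74.9 times higher in oocytes.

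The 15 genes with the largest differences towards granulosa cells, by 7.24 to 8.88, were Inha, Gja1, Hsd17b1, Tenm4, Fos, Apoa4, Fst, Hsd3b1, Inhba, St3gal4, Scd2, Car14, Ngfrap1, Ldha and Inhbb. They include the inhibin and activin subunit genes Inha, Inhba and Inhbb, the activin antagonist follistatin (Fst), the connexin of granulosa gap junctions (Gja1), steroid dehydrogenases (Hsd17b1 and Hsd3b1), the desaturase Scd2 and the A subunit of lactate dehydrogenase (Ldha). In none of them did the groups fully part, since 1 or more granulosa cells fell to the level of the oocytes. In summed reads the smallest ratio was that of Ldha, at 152 times the oocyte level, and that of Hsd3b1 was 1606. No ratio is given for Fos and Apoa4, with 2 and 1 reads in all oocytes. In RPM averaged over cells, the most abundant genes were Ubb, Spin1, Gm15698, H1foo and Fbxw14 in oocytes and Inha, mt-Co3, mt-Cytb, mt-Co1 and Inhba in granulosa cells. For Inhba the mean over granulosa cells was 6882 RPM and the median 1210 RPM. Without the granulosa cells of library pool 1 its mean log2 (RPM+1) went from 9.08 to 7.07.

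**Figure D2:**
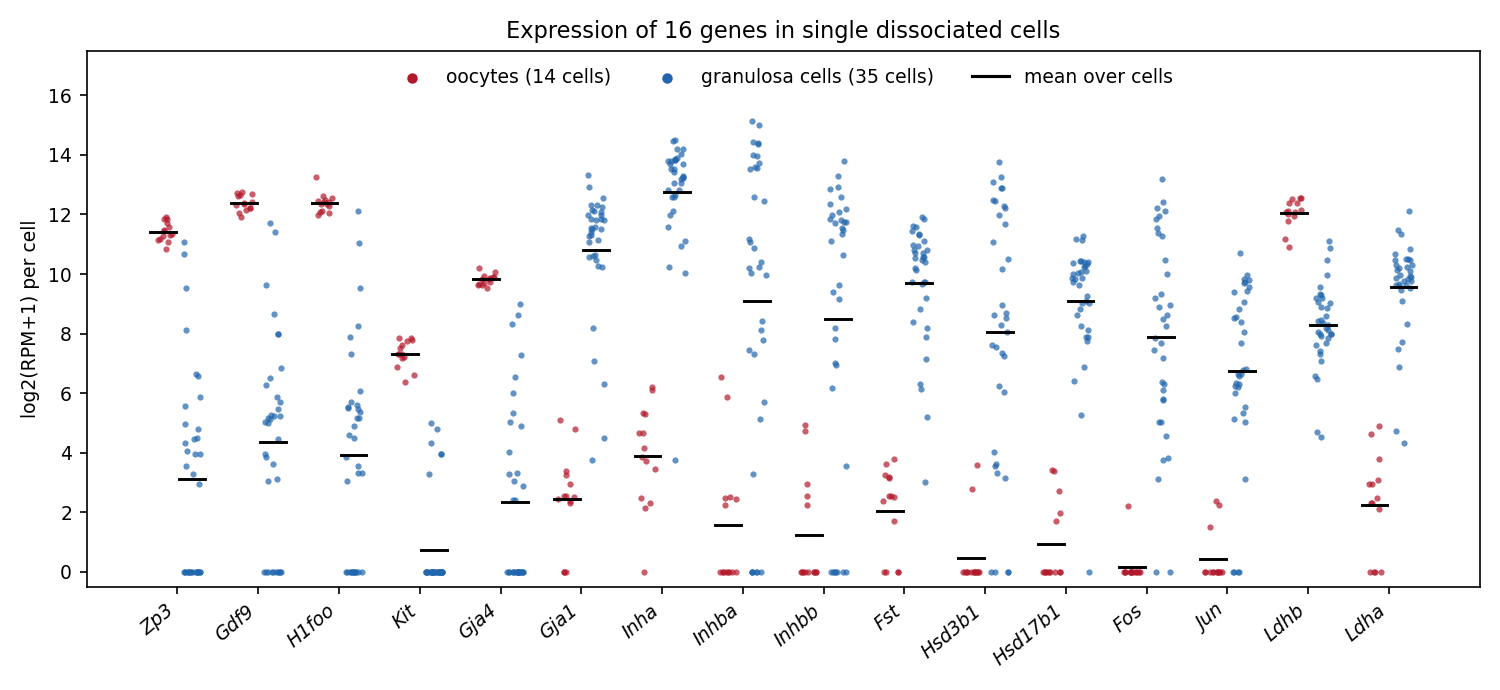
Log2 (RPM+1) of 16 genes (vertical axis) in each of 14 oocytes (red) and 35 granulosa cells (blue), with the mean over cells as a black line. Oocytes hold narrow ranges for Zp3, Gdf9, H1foo, Kit, Gja4 and Ldhb, and granulosa cells spread from 0 to over 12 for Inhba, Inhbb, Hsd3b1 and Fos.

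Of the genes through which the oocyte builds its coat and speaks to its follicle, every listed member was at least 4-fold higher in oocytes, where 31.7% of all genes were. The 3 zona genes had mean log2 (RPM+1) of 10.01 ± 0.33 (Zp1), 10.60 ± 0.32 (Zp2) and 11.43 ± 0.32 (Zp3) in oocytes (mean ± SD over the 14 cells) and 2.02 ± 3.07, 2.64 ± 3.15 and 3.11 ± 3.40 in granulosa cells (over the 35 cells). Zp3 lies at chr5:135980099-135988624. It was read at 1848, 2686 and 3862 RPM in oocytes and at 0, 8.79 and 2181 RPM in granulosa cells, of which 19 had a read, and 12 of the 14 oocytes lay above every granulosa cell. Summed over cells it came to 2705 RPM (exact Poisson 95% interval 2656 to 2755) in oocytes and 63.2 RPM (exact Poisson 95% interval 55.96 to 71.1) in granulosa cells. The intervals cover counting error only, since reads were amplified without molecular identifiers and do not each stand for a molecule. Of the 4 secreted factors, Gdf9 and Bmp15, the paired growth factors that act on granulosa cells, were the most abundant, at 3861, 5293 and 6953 RPM and 1823, 2852 and 3406 RPM in oocytes and a median of 31.9 and 14.7 RPM in granulosa cells. Fgf8, which acts with Bmp15 on cumulus glycolysis, was at 191, 316 and 416 RPM and had reads in 6 of 35 granulosa cells, and Bmp6 was at 7.09 ± 0.30 against 2.32 ± 2.70 on the log2 scale.

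Of 10 oocyte transcription factors, 9 were at least 4-fold higher in oocytes, against 31.7% of all genes, with a list median of 6.51. Nobox, Lhx8 and Figla, which direct oocyte genes from the primordial follicle on, had means of 8.65 ± 0.42, 8.34 ± 0.34 and 6.31 ± 0.39 in oocytes and 1.48 ± 2.63, 0.72 ± 1.80 and 0.46 ± 1.39 in granulosa cells. The homeobox gene Obox1 was at 1829, 3662 and 4130.4 RPM in oocytes and a median of 11.4 RPM in granulosa cells. Sohlh1, which acts in early follicles, was the exception, with reads in 4 oocytes and in no granulosa cell.

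Genes of the maternal store were at least 4-fold higher in oocytes with 1 exception, where 31.7% of all genes were. All 10 genes of the subcortical maternal complex and oocyte NLRP family were at least 4-fold higher in oocytes (median 7.40), and together they made up 11232, 13479 and 17017 RPM in oocytes and 0, 116 and 12316 RPM in granulosa cells. Ooep, Nlrp14 and Khdc3 had medians of 2333, 2363 and 1635 RPM in oocytes. All 13 genes of the Oog, Tcl1, Fbxw and Bcl2l10 group were higher as well, with a sum of 15933, 21643 and 25958 RPM in oocytes. Members of these clusters are near-identical copies, so that reads may have been split between them. Of 12 genes of mRNA storage and decay, 11 were higher in oocytes. Btg4, the adaptor for maternal mRNA decay, was at 2353.5, 3060.0 and 3869 RPM, Zar1, which stores maternal mRNA, at 1136, 1804 and 2786 RPM, and the translation regulators Cpeb1 and Dazl at medians of 635 and 681 RPM. The decay factor Zfp36l2 was 2.48 ± 1.65 in oocytes and 3.22 ± 3.14 in granulosa cells on the log2 scale.

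Of 15 genes of meiotic arrest and maturation, 11 were at least 4-fold higher in oocytes and 1 in granulosa cells, against 31.7% and 6.08% of all genes. Gpr3, the receptor that keeps cAMP high in the oocyte, had reads in all 14 oocytes at 14.02, 32.7 and 54.5 RPM and in 1 granulosa cell. Pde3a, the phosphodiesterase that breaks down cAMP, was at 7.48 ± 0.36 against 0.71 ± 1.71, and the kinases Mos and Wee2 at 9.88 ± 0.18 and 8.64 ± 0.20 against 2.05 ± 2.83 and 1.28 ± 2.25. Ccnb1 was at 711, 1330.0 and 1976 RPM in oocytes and 0, 80.5 and 706 RPM in granulosa cells. The adenylate cyclase Adcy3, known as the oocyte form, went the other way, with reads in 1 of 14 oocytes and 15 of 35 granulosa cells, and was within 4-fold without the granulosa cells of pool 1, with attached granulosa cells alone and within pools. Gpr12 had reads in 5 oocytes alone. All 6 genes of the egg surface and cortical granules were 4-fold higher in oocytes, among them the egg receptor for sperm, Izumo1r (8.54 ± 0.27 against 1.78 ± 3.00) and the cortical granule protease Astl (8.09 ± 0.36 against 0.92 ± 2.03). Of 12 chromatin genes, 9 were higher in oocytes, also above the 31.7% of all genes, with Npm2 at 812, 1259 and 1773 RPM and Dppa3 at 1302, 1653 and 2113 RPM, while Trim28 (7.02 ± 0.51 against 7.39 ± 2.66), Dnmt3a (6.58 ± 0.55 against 5.57 ± 2.92) and Setd1b were within 4-fold.

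The genes by which the cell types are joined divided by side. Gja4, the oocyte connexin, was at 741, 916 and 1178 RPM in oocytes and 0, 0 and 507 RPM in granulosa cells, and Gja1 (chr10:56377330-56402513), the granulosa connexin, was at 0, 4.75 and 32.998 RPM and 12.6, 2933 and 10276 RPM. For Gja4 every oocyte was above every granulosa cell, and for Gja1 33 of the 35 granulosa cells were above every oocyte. The receptor Kit was at 7.32 ± 0.46 against 0.72 ± 1.63 and also without overlap. Its ligand gene Kitl was low in both, at 2.41 ± 1.22 and 1.37 ± 2.47, with reads in 9 of 35 granulosa cells. Among 15 receptors and SMAD genes of the BMP and GDF pathway, 3 were 4-fold higher in oocytes (Smad1, Smad2 and Smad3), a smaller share than the 31.7% of all genes, and 2 in granulosa cells, where 6.08% of all genes were. These counts were 5 and 1 within pools, 4 and 4 after thinning to 50000 reads and 3 and 5 with granulosa libraries of at least 100000 reads. Those higher in granulosa cells with all cells were the target Id3, at 0, 3.37 and 13.4 RPM in oocytes and 17.9, 286 and 3079 RPM in granulosa cells with no overlap, and the inhibitory Smad7, at 0.28 ± 0.73 and 2.83 ± 3.05. The receptor genes Bmpr1a, Bmpr1b and Bmpr2 were within 4-fold, with Bmpr1b at 7.61 ± 0.25 and 7.39 ± 2.41.

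Granulosa cells stood out by the inhibin and activin subunits, though unevenly. Inha (chr1:75507077-75510366), the subunit of inhibins alone, was at 0, 15.1 and 73.3 RPM in oocytes and 12.6, 9720.2 and 23449 RPM in granulosa cells. It had reads in all 35 granulosa cells, and 34 lay above every oocyte. Inhba (chr13:16011851-16031621), shared by inhibin A and activin A, was at 0, 0 and 92.03 RPM in oocytes and 0, 1210.1 and 35820.3 RPM in granulosa cells, with means of 1.58 ± 2.25 and 9.08 ± 5.12 on the log2 scale. Summed over cells it came to 15.9 RPM (exact Poisson 95% interval 12.3 to 20.1) and 9365 RPM (exact Poisson 95% interval 9274 to 9456). Inhbb was at 0, 2228 and 14380.2 RPM in granulosa cells with reads in 28 of 35. Of the receptors, Acvr1b and the inhibin co-receptor Tgfbr3 were higher in oocytes, at 17.8, 40.2 and 71.5 RPM and 9.35, 44.1 and 63.5 RPM against medians of 0 and 0 RPM, while Acvr2a and Acvr2b were within 4-fold.

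Inhba set the granulosa cells apart from each other. In library pool 1, whose 10 granulosa cells were all non-neighboring, Inhba was at 6219, 18728 and 35820.3 RPM, and in pool 5, with 8 granulosa cells of both labels, it was at 0, 17.1 and 343 RPM. The pools did not overlap. Inha differed less, at 9720.2 to 23449 RPM in pool 1 and 6148 to 11941 RPM in pool 5. Hsd3b1 differed between these pools as well, at 2167 to 13977 RPM in pool 1 and 0 to 1141.5 RPM in pool 5. It also differed by position within pools. In pool 5 it was at 74.1 to 1141.5 RPM in the 5 non-neighboring cells and 0 to 9.06 RPM in the 3 attached cells, and in pool 3 at 1438 and 3306 RPM in the 2 non-neighboring cells and 0 to 64.02 RPM in the 3 attached cells, without overlap in either pool. Over all pools the granulosa excess of Hsd3b1 was 10.29 with non-neighboring cells and 3.53 with attached cells. For Inhba it was 8.52 and 5.99. In pool 3 Inhba was at 12030 and 12249 RPM in the 2 non-neighboring cells and at 998 to 5634 RPM in the 3 attached cells. In pool 5 the Inhba levels of the 2 labels overlapped. Without pool 1 the granulosa excess of Inhba was 5.50, that of Inhbb 5.87 and that of Hsd3b1 5.75, against 7.51, 7.24 and 7.59 with all cells. The labels do not give the follicle a cell came from, so that pool and follicle cannot be told apart.

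**Figure D3:**
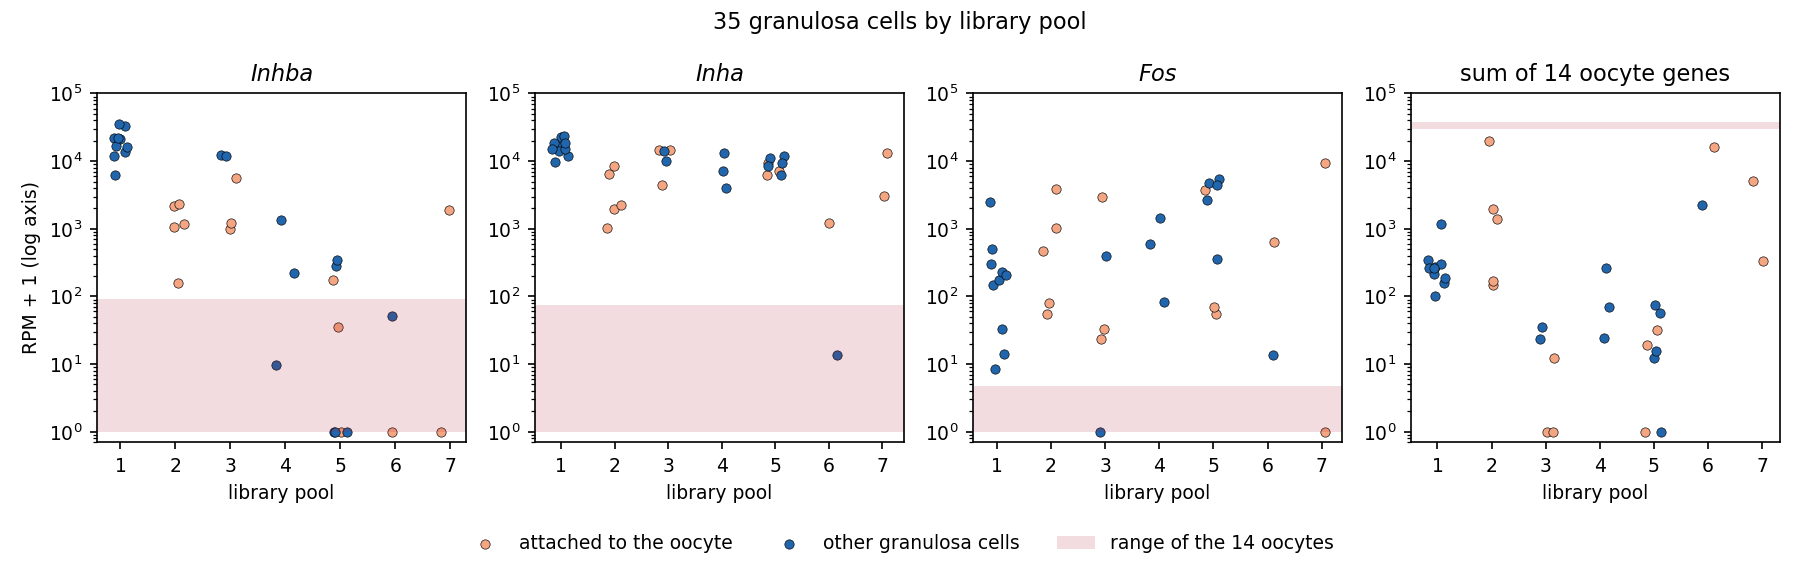
RPM + 1 on a log axis (vertical) of Inhba, Inha, Fos and the sum of 14 oocyte genes in each of the 35 granulosa cells, by library pool (horizontal), with cells attached to an oocyte in orange, other cells in blue and the range of the 14 oocytes shaded. Inhba falls from 6219 RPM or more in pool 1 to at most 343 RPM in pool 5, while Inha is at 6148 RPM or more in both.

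Of 11 granulosa identity genes, 7 were at least 4-fold higher in granulosa cells and none in oocytes, where 6.08% of all genes were higher in granulosa cells. They were Fst at 7.08, 1432 and 3820.0 RPM (oocytes 0, 4.75 and 12.8 RPM), the FSH receptor Fshr with reads in 29 of 35 cells at a median of 159 RPM, the granulosa fate regulator Foxl2 in 28 cells at 79.7 RPM, Amhr2, Nr5a1, Nr5a2 and Wt1. Esr2 and Gata4 were within 4-fold, Esr2 at 7.58 ± 0.22 in oocytes and 8.25 ± 1.47 in granulosa cells. Amh, a product of smaller growing follicles, had reads in 5 granulosa cells at up to 188 RPM. With the 14 attached granulosa cells alone 5 members passed 4-fold, where 3.81% of all genes were higher in granulosa cells. With the 21 others it was 7, against 8.76% of all genes.

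Of 10 steroidogenic genes and gonadotropin receptors, 4 were at least 4-fold higher in granulosa cells, against 6.08% of all genes, and none in oocytes. Hsd17b1, which makes estradiol from estrone, was at 0, 921 and 2466 RPM with reads in 34 cells, and Hsd3b1, which makes progesterone, at 0, 365 and 13977 RPM. The lipoprotein receptor Scarb1 and the ferredoxin reductase Fdxr were at 6.65 ± 2.58 and 5.84 ± 2.53 against 3.13 ± 1.18 and 1.46 ± 1.40. The aromatase gene Cyp19a1 had similar means in both, 3.43 ± 1.23 in oocytes and 3.29 ± 3.51 in granulosa cells, and reached 1048 RPM in the highest granulosa cell. The granulosa mean rests largely on pool 1, where it was at 12.6 to 1048 RPM, and it had no read in the granulosa cells of pool 5. Star had reads in 4 granulosa cells and the LH receptor Lhcgr in 10, at up to 351 RPM. In the pathway that sends cGMP to the oocyte, the receptor Npr2 was at 5.47 ± 2.97 against 0.11 ± 0.40, and its ligand gene Nppc had reads in 12 granulosa cells and no oocyte.

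Most genes that cumulus cells switch on for expansion had few reads or none. Of 14 genes, Has2, Ptgs2, Ptx3, Ereg and Pgr had no read in any of the 49 cells, where 3 reads over all granulosa cells would be 0.69 RPM. Tnfaip6 had reads in 3, Areg in 2 and Adamts1 in 10 of 35 granulosa cells and in no oocyte. Runx1 was the 1 member of the 14 past 4-fold, near the 6.08% of all genes, at 2.14 ± 2.82 in granulosa cells with no read in oocytes. Within pools none of the 14 was 4-fold higher in granulosa cells and 1 was in oocytes. With attached granulosa cells alone none passed 4-fold on either side. Rgs2, a brake on G-protein signalling, was abundant in both, at 1539, 2151 and 2498 RPM in oocytes and 14.5, 1027 and 6342 RPM in granulosa cells.

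Immediate early genes, which are switched on within minutes of a stimulus and without new protein, differed in part between the cell types. Of 26 genes, 7 were at least 4-fold higher in granulosa cells (Fos, Fosl2, Jun, Junb, Jund, Ier2 and Klf6) and 1 in oocytes (Dusp1), against 6.08% and 31.7% of all genes. Within pools it was 4 and 2, and with pools that held no oocyte library 10 and 1. The list median (oocytes minus granulosa cells) was -0.49. Fos (chr12:85473890-85477273) was at 0, 0 and 3.67 RPM in oocytes, of which 1 had a read, and at 0, 303 and 9283 RPM in granulosa cells, of which 33 were above every oocyte. Summed over cells it came to 0.467 RPM (exact Poisson 95% interval 0.0565 to 1.69) in oocytes and 1233 RPM (exact Poisson 95% interval 1200.1 to 1266) in granulosa cells. Jun was at 0, 108 and 1669 RPM and Ier2 at 0, 58.7 and 1861 RPM in granulosa cells, with reads in 3 and 2 oocytes. Junb had reads in 17 granulosa cells and in no oocyte, and its summed level was at least 138-fold that of 3 reads over all oocytes.

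Not every member followed by means over cells. Egr1 was at 3.64 ± 0.73 in oocytes and 4.33 ± 3.90 in granulosa cells. In summed reads Egr1 was higher in granulosa cells by 3.66 on the log2 scale, against 0.70 by means over cells. Nr4a1 had reads in 9 granulosa cells, and Egr3 in none of the 49 cells, while Atf3 had reads in 6 oocytes and no granulosa cell. Dusp1, a phosphatase that turns off MAP kinases, was at 19.3, 66.8 and 108 RPM in oocytes and had reads in 12 granulosa cells at up to 724 RPM, and in summed reads it differed by 0.21 on the log2 scale against 3.77 by means over cells. Among granulosa cells Fos spread widely. It exceeded 1000 RPM in 11 of 35 granulosa cells (31.4%, Clopper-Pearson 95% interval 16.9% to 49.3%). This interval covers counting error only, since cells of the same ovary and pool are not independent replicates. In pool 5, Fos was at 54.3, 3191 and 5506 RPM, where Inhba was low, and in pool 1 at 7.56, 190.1 and 2475 RPM, where Inhba was high. Attached granulosa cells ran from 0 to 9283 RPM with a median of 274, and the others from 0 to 5506 RPM with a median of 303.

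Of 12 heat shock genes, 3 were higher in each cell type, where 31.7% of all genes were higher in oocytes and 6.08% in granulosa cells. The counts were 4 and 2 (oocytes and granulosa cells) under TMM scaling and 4 and 1 within pools. Hsp90ab1, Hspd1 and the co-chaperone Bag3 were higher in granulosa cells, Hsp90ab1 at 10.83 ± 0.70 against 7.61 ± 0.47, and Dnajb1, Dnaja1 and Hspb1 in oocytes. The inducible genes Hspa1a and Hspa1b were low in both, at means of at most 1.66. Hsph1 was the top gene of 1 attached granulosa cell in pool 2, at 17317 RPM, against a median of 75.2 RPM.

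Glycolytic genes were higher in granulosa cells for the most part, and the lactate dehydrogenase subunits went opposite ways. Of 16 glycolytic genes 9 were at least 4-fold higher in granulosa cells and 2 in oocytes, against 6.08% and 31.7% of all genes, with a median of 2.90 towards granulosa cells. Ldha (chr7:46841475-46855627), the subunit that favours lactate, was at 0, 4.26 and 28.97 RPM in oocytes and 19.2, 959.8 and 4483 RPM in granulosa cells. Ldhb (chr6:142490249-142507957), the subunit that favours pyruvate, was at 1939.6, 4399 and 6017 RPM in oocytes and 22, 312 and 2211 RPM in granulosa cells. Eno1 was at 4.9, 30.4 and 42.2 RPM and 221, 877 and 2830.1 RPM and Tpi1 at 9.01, 41.3 and 82.5 RPM and 139, 693 and 4426 RPM, both without overlap between the groups. Aldoa, Pgam1, Pgk1, Gpi1 and the liver-type phosphofructokinase Pfkl were also higher in granulosa cells, and the glucose transporter Slc2a1 in oocytes (5.01 ± 0.59 against 2.64 ± 3.11). Gapdh was listed at 0 in all oocytes and at a median of 21.6 RPM in granulosa cells. Gapdh and other glycolytic genes have near-identical pseudogenes that can take their reads, so that its level is uncertain.

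Of 10 amino acid transporters, Slc38a1, Slc38a2, Slc38a3 and Slc7a5 were 4-fold higher in granulosa cells, and Slc6a9, the glycine carrier of oocytes, and Slc7a1 in oocytes. Of all genes 6.08% and 31.7% were, so that the 2 of 10 in oocytes were a smaller share than that of all genes. Slc38a3, through which granulosa cells take up amino acids for the oocyte, was at 4.38 ± 3.96 against 0.22 ± 0.55, and Slc6a9 at 5.66 ± 0.55 in oocytes against 1.30 ± 2.22. Cholesterol synthesis, a task known of cumulus cells, showed no more genes higher in oocytes than all genes did: by means over cells 6 of 20 were higher in oocytes, against 31.7% of all genes, among them Hmgcs1 (8.72 ± 0.36 against 4.73 ± 3.24) and Fdft1, while Mvk was higher in granulosa cells (3.59 ± 3.30 against 0.17 ± 0.64). With summed reads the list median (oocytes minus granulosa cells) went from 0.40 to -1.94, and with thinning to 50000 reads 5 genes passed 4-fold on each side. Within pools none of the 20, Mvk included, was 4-fold higher in granulosa cells.

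Transcripts of ribosomal proteins and of the mitochondrial genome took a larger share of most granulosa libraries, while a few tissue-restricted paralogs were higher in oocytes. Of 83 ribosomal protein genes, 32 were 4-fold higher in granulosa cells and 2 in oocytes (median 1.75 towards granulosa cells), against 6.08% and 31.7% of all genes, and their sum was 10737, 11944 and 14764 RPM in oocytes and 16342, 54259 and 87989 RPM in granulosa cells. The 2 were Rpl39l (8.21 ± 0.23 against 1.47 ± 2.42) and Rps4l (5.90 ± 0.55 against 0.25 ± 1.04), paralogs of Rpl39 and Rps4x. The count towards granulosa cells was 18 under TMM scaling, 21 within pools, 47 with pools that held no oocyte library and 50 with non-neighboring cells alone. Ribosomal protein genes have many processed copies, so that single members, such as Rpl9 with its 7.21 excess in granulosa cells, are uncertain. Of 81 nuclear genes of the respiratory chain, 6 were higher in granulosa cells, near the 6.08% of all genes, and 4 in oocytes, where 31.7% of all genes were. In oocytes and in granulosa cells the counts were 8 and 4 under TMM scaling, 9 and 7 within pools, 4 and 10 with pools that held no oocyte library and 4 and 11 with non-neighboring cells alone. The 4 higher in oocytes with all cells were Cox6b2 (4.88 ± 0.70 against 0.75 ± 1.95), Cox6a2, Cox8c and Atp5sl, of which the Cox genes are tissue-restricted forms of cytochrome c oxidase subunits. The summed level of the 81 genes was 15013, 17161 and 18554 RPM in oocytes and 23219, 38613 and 91046 RPM in granulosa cells, with every granulosa cell above every oocyte, while the list median (granulosa cells minus oocytes) was 0.37 and went to -0.18 under TMM scaling. The 13 genes of the mitochondrial genome made up 3728, 5208 and 6739 RPM in oocytes and 3364, 41259.9 and 155497 RPM in granulosa cells, and 8 of them were 4-fold higher in granulosa cells, against 6.08% of all genes. This count was 2 within pools, 4 under TMM scaling, 5 with attached cells alone, and 12 both with non-neighboring cells alone and with pools that held no oocyte library. The granulosa cell with the highest mitochondrial share, 15.5% of reads, had 3403 detectable genes. Whether such cells had lost RNA was not tested.

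Of 15 cell cycle genes, Ccnd2, the cyclin of granulosa proliferation, and Cdk4 were higher in granulosa cells (8.66 ± 1.82 and 6.74 ± 2.39 against 5.38 ± 1.06 and 1.88 ± 1.73) and Cdk1 in oocytes (7.82 ± 0.23 against 5.71 ± 3.24). The 1 of 15 in oocytes was a smaller share than the 31.7% of all genes, and 6.08% of all genes were higher in granulosa cells. The count in oocytes was 3 within pools and under TMM scaling. It was 0 with non-neighboring cells alone and with granulosa libraries of at least 100000 reads. Mki67 and Top2a were within 4-fold, with reads in 29 and 30 of 35 granulosa cells. Of 12 epithelial and matrix genes, Krt8, Vcan and Sparc were higher in granulosa cells and Cdh1, Lamb1 and Col4a2 in oocytes, against 6.08% and 31.7% of all genes, so that the 3 in oocytes were no larger a share than among all genes. Cdh1 was at 7.27 ± 0.56 in oocytes against 2.30 ± 2.32, and Vcan at 0.14 ± 0.53 against 3.81 ± 3.55. Serpine2 was high in both, at medians of 447 and 1547 RPM.

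**Figure D4:**
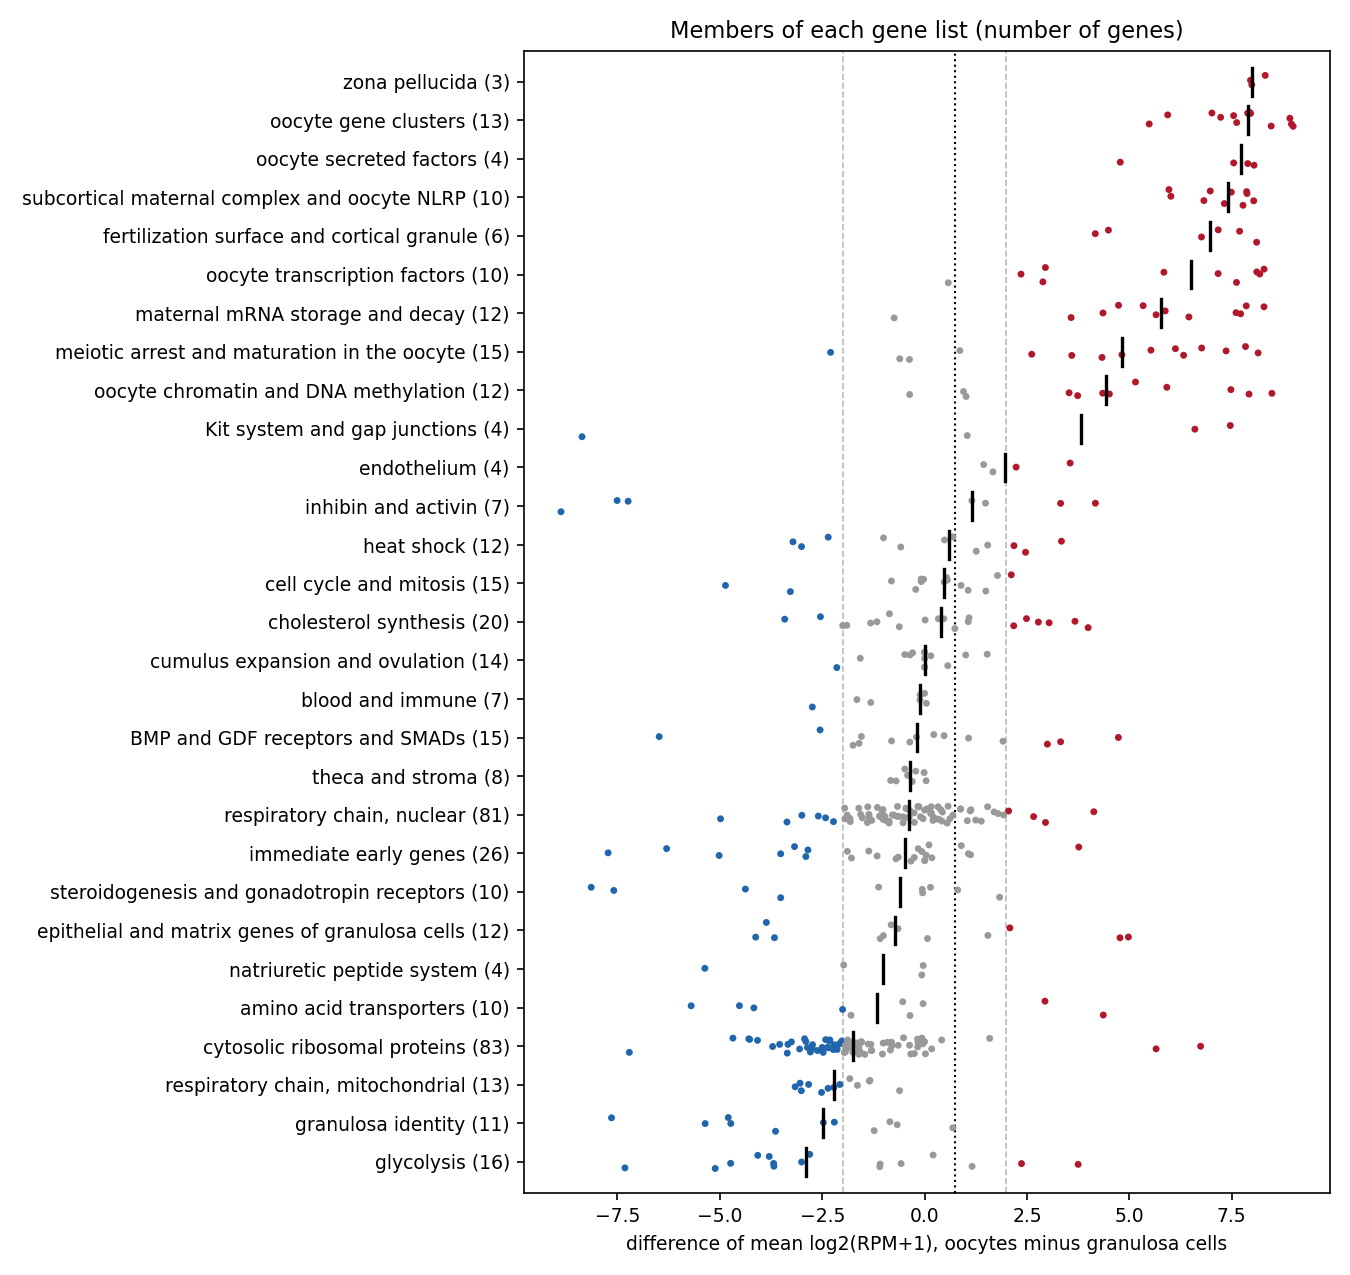
Difference of mean log2 (RPM+1), oocytes minus granulosa cells (horizontal axis), of every member of 29 gene lists (rows, with the number of genes in parentheses), in red or blue beyond the dashed lines at a 4-fold difference, with the list median as a black bar and the median of all genes, 0.75, as a dotted line. The lists of oocyte products lie to the right, with medians of 4.43 or more, and glycolysis, granulosa identity and mitochondrial genes to the left.

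Markers of other ovarian cells were low in most libraries and not in all. None of 8 theca and stroma genes passed 4-fold with all cells. Within pools Acta2 was higher in granulosa cells by 2.89 on the log2 scale. Acta2 was at 4190.0 RPM in 1 granulosa cell, the pool 6 library low in granulosa markers, on which its value within pools rests in part. In attached granulosa cells its mean was 0. The sum of the 8 genes had a median of 0.917 RPM in oocytes and 0 in granulosa cells. The sum was 307, 543 and 418 RPM in the 3 granulosa cells of pool 4 and 145 and 159 RPM in 2 cells of pool 5, against at most 9.01 RPM in oocytes and 50.3 RPM in the other granulosa cells. All 6 libraries with such sums were non-neighboring cells, and the part of theca or stroma RNA in them was not tested. The theca marker Cyp17a1 had reads in 3 granulosa cells. Hba-a1 and Hbb-bs, the globins, had reads in 10 and 7 of 35 granulosa cells and were at up to 26075 and 23879 RPM, with Hba-a1 the top gene of an attached granulosa cell of pool 6, and the sum of 7 blood and immune genes was 12216.5 RPM in the pool 6 library low in granulosa markers. The leukocyte gene Ptprc had no read in any cell. Alas2, the erythroid enzyme of heme synthesis, had reads in 17 of 35 granulosa cells at up to 684 RPM and in no oocyte. It was the 1 of the 7 blood and immune genes 4-fold higher in granulosa cells, where 6.08% of all genes were. Within pools 3 of the 7 were, where pool 6, with its 2 granulosa libraries high in blood genes, weighs as much as each other pool. The part of blood cell RNA in these libraries was not tested. Of the 4 endothelial genes, Tek and Pecam1 were 4-fold higher in oocytes, where 31.7% of all genes were (3.62 ± 0.86 and 2.34 ± 1.33 against 0.06 ± 0.37 and 0.10 ± 0.62), where all 14 cells had Tek reads. After thinning to 50000 reads neither passed 4-fold.

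Oocyte transcripts in granulosa libraries varied widely between cells. The sum of 14 oocyte markers (Zp2, Zp3, Gdf9, Bmp15, H1foo, Izumo1r, Oosp1, Bcl2l10, Oog1, Oog3 and Obox1, 2, 3 and 5) was 29895, 33879 and 37965 RPM in oocytes and 0, 155 and 19611 RPM in granulosa cells. At least 10% of the median oocyte level was reached by 3 of 35 granulosa cells (8.57%, Clopper-Pearson 95% interval 1.8% to 23.1%), with an interval of the same limited meaning. They were attached cells of pools 2, 6 and 7, at 19611, 16124 and 5016 RPM. The first, with 12748 reads, was the shallowest library of all, the second was the cell with the highest Hba-a1 level, and all had lower granulosa marker sums (2981, 3854 and 3748 RPM) than the granulosa median of 15300 RPM. Below that level, 2 more attached cells of pool 2 were at 1952 and 1389 RPM, so that the count depends on where the limit is set. By position, it was 3 of the 14 attached cells and none of the 21 others, of which the highest, at 2284 RPM, was the library low in granulosa markers.

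The oocyte sum also differed by library pool. In the 15 granulosa cells of pools 3, 5 and 7, from which no oocyte library was analysed here, the median was 18.1 RPM, and in the 20 cells of pools 1, 2, 4 and 6, each with 1 oocyte library, it was 264 RPM. The cell at 5016 RPM was in pool 7, whose other granulosa cell was at 333 RPM. All 13 cells of pools 3 and 5 were at 74.1 RPM or lower, and all 10 of pool 1 at 101 RPM or higher. The 3 cells of pool 4, which has an oocyte library, were at 264, 69.3 and 23.2 RPM, the last 2 within the range of pools 3 and 5. The pools with and without an oocyte library thus overlapped. Of granulosa transcripts in oocytes, Inhba was at 56.8 and 92.03 RPM in the oocytes of pools 1 and 2, 3.76 and 4.47 RPM in those of pools 4 and 6, and at most 4.67 RPM in the 10 oocytes of pool 8, which held no granulosa library. Inha was at 73.3 and 68.3 RPM in the oocytes of pools 1 and 2, 39.5 and 13.4 RPM in those of pools 4 and 6, and at most 38.1 RPM in pool 8. For both genes the oocytes of pools 4 and 6 were within or near the range of pool 8. The summed level of the 10 granulosa markers reached 657 RPM in pool 8 and was 656 RPM in the oocyte of pool 2. Serpine2 made up 599 and 433 RPM of these sums, so that their likeness does not hold for the other markers. The part of reads assigned to another index of the same pool in these levels was not tested. With granulosa cells of pools 3, 5 and 7 alone, the 3 zona genes and the 4 secreted factors had median differences of 9.71 and 8.87, against 7.99 and 7.72 with all cells. Within pools 1, 2, 4 and 6, where 1 oocyte could be set against 10, 5, 3 and 2 granulosa cells, Zp3 was higher in the oocyte by 7.18, 6.33, 10.03 and 1.71 on the log2 scale. Fos was higher in the granulosa cells by 4.84, 8.58, 8.68 and 6.55, and Inhba by 8.26, 3.42, 4.91 and 0.39. Each kept its direction in the 4 pools, and Zp3 and Inhba were within 4-fold in pool 6, whose 2 granulosa libraries were 1 high in oocyte genes and the one low in granulosa markers.

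In LCM cells of the same mouse lists of oocyte genes had differences of similar size, and several granulosa genes had smaller ones. The LCM cells were fixed, were cut from sections and were lysed by another protocol, and came from other follicles, and these factors cannot be told apart. Zp3 was at 11.27 ± 0.46 in the 8 LCM oocytes and 3.21 ± 2.83 in the 70 LCM granulosa cells, a difference of 8.06 against 8.32 in dissociated cells. For Gja1 and Fst the granulosa excess was 7.92 and 7.32 in LCM cells and 8.37 and 7.65 in dissociated cells. Inhba was at 1.74 ± 2.69 in LCM granulosa cells against 9.08 ± 5.12 in dissociated ones, with a highest LCM cell of 403 RPM, below the median dissociated cell. Fos was at 1.39 ± 2.53 and Jun at 0.91 ± 1.99 in LCM granulosa cells against 7.89 ± 3.42 and 6.74 ± 3.03, and Hsd3b1 at 2.44 ± 3.47 against 8.04 ± 4.29. Fos had no read in any LCM oocyte. The glycolysis list had a median difference of -0.23 in LCM cells against -2.90 in dissociated cells. Nuclear respiratory chain genes had 1.04 against -0.37, cholesterol synthesis 2.23 against 0.40, and immediate early genes 0.02 against -0.49. For ribosomal proteins it was -0.78 against -1.75, and for granulosa identity -3.10 against -2.47. Of the 20 cholesterol genes, 12 were 4-fold higher in oocytes in LCM cells and 6 in dissociated cells. The zona, secreted factor and cluster lists had 8.42, 7.42 and 6.73 against 7.99, 7.72 and 7.89. The median over all genes was 0.81 in LCM cells.

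**Figure D5:**
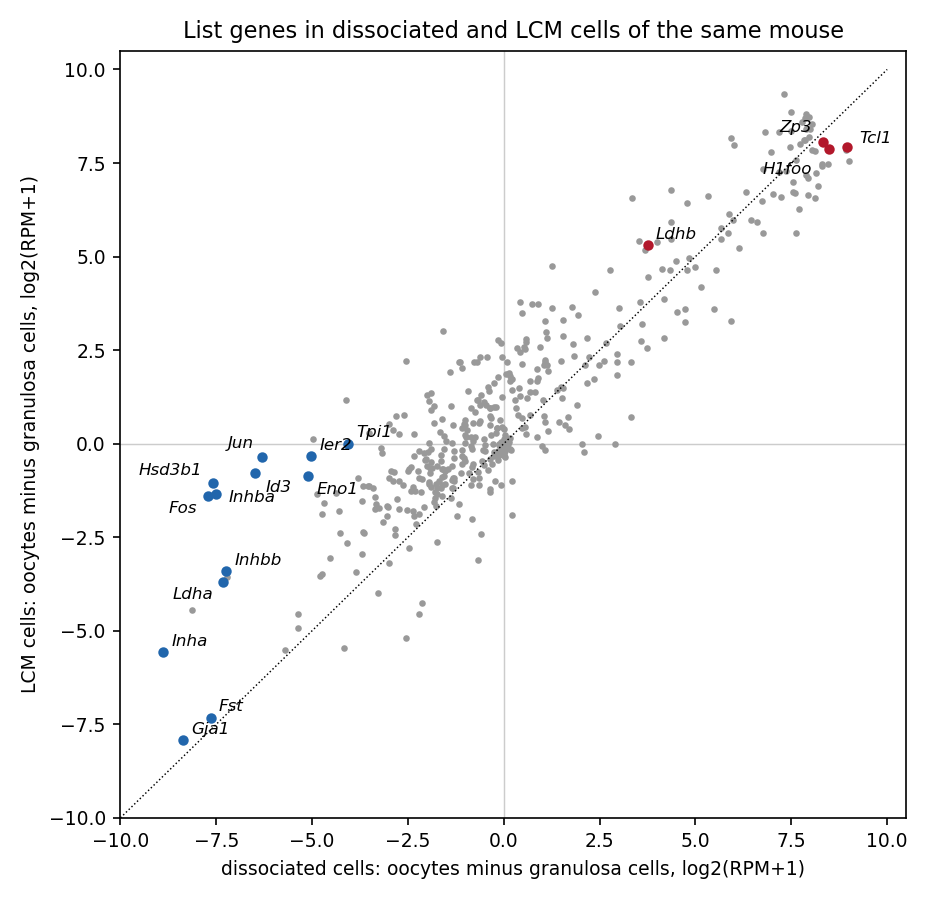
Difference of mean log2 (RPM+1), oocytes minus granulosa cells, in dissociated cells (horizontal axis, 14 and 35 cells) and in LCM cells (vertical axis, 8 and 70 cells) for the 457 genes of the lists, with some genes named and the dotted line at equal differences. Zp3, Gja1 and Fst lie near the line, and Inhba, Fos, Jun and Hsd3b1 lie far above it, at -1.33, -1.39, -0.35 and -1.05 in LCM cells.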

How the data were processed

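Single-cell cDNA of 14 oocytes and 35 granulosa cells was made by Smart-seq2, pooled with in-line indices and sequenced at the 3′ ends. The authors deposited read counts per gene, without normalization. Per the labels, fastp 0.20.0, cutadapt 1.16, HISAT2 2.1.0 and HTSeq 0.10.0 were among the tools, with GRCm38. Per the study's methods, reads near annotated 3′ ends were counted. The methods also state that libraries with few reads and few genes were removed, with a higher limit of genes for oocytes than for granulosa cells. The limit of 100000 reads stated there may refer to another total or to libraries low in both, as 15 of the 35 granulosa libraries held fewer reads here, all with at least 3143 detectable genes. The table holds 22060 genes, of which 21412 match protein-coding IDs of GENCODE M21. Of IDs that share a symbol, the ID with more reads was used.

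Each count was scaled to its library's total (RPM), and log2 (RPM+1) was averaged over the cells of a type. A 4-fold difference is 2 on this scale, and it understates differences of low genes. All cells are from 1 ovary, so no p-values were computed. Named genes are Zp3, Inhba, Fos, members of 29 lists, and the 15 with the largest differences in each direction among 7426 genes with a mean of at least 4 in a cell type. The most abundant genes and the splits by pool were singled out after their values were seen. The cells, lists and rule were chosen with earlier results of these data known. Thinning drew reads without replacement. Python 3.11.15, numpy 2.4.6, pandas 2.3.3, scipy 1.17.1 and, for TMM, R 4.3.3 with edgeR 4.0.16 were used. The calculation was tested on simulated data. A member of the lists is not reported here.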

Additional observations from a re-analysis of the deposited data

How the results depend on the processing

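No result was tested, so a setting could move a value but not a call. Counts of genes at least 4-fold higher in oocytes and in granulosa cells, 5333 and 1021, became 1921 and 512 with 10 RPM added before the logarithm and 2834 and 3309 with reads summed over cells, and with attached granulosa cells alone the second count became 615, and 578 with differences taken within the 4 pools that held both cell types. The other settings, among them TMM scaling, a filter at 10 RPM and thinning to 50000 reads, left both counts within 1.5 times, apart from those named. The gap between the cell types' median numbers of detectable genes, 4554.5, came to 2205, 1733.5 and 886.5 after thinning to 100000, 50000 and 20000 reads, which leaves out shallower cells. The 30 genes with the largest differences stayed past 4-fold under all settings of the dissociated cells, with a smallest value of 3.53 for Hsd3b1 against attached granulosa cells, and 27 of 30 did in LCM cells. Of 29 list medians, 23 moved by more than the spread between cells with summed reads, 11 with 10 RPM added, 12 with 0.1 RPM added, 9 within pools and none with TMM scaling. The median for inhibin and activin genes went from 1.15 to -1.54 with summed reads. Leaving out the library low in granulosa markers, leaving out pool 1 and the differences within pools were chosen after seeing the data. Granulosa libraries under 100000 reads (15 of 35) limit the detection of low genes.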
